A study of Mus musculus with 10 samples.

Results

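Collagens, laminins and the other genes of the basement membrane and the interstitial matrix were taken from the deposited gene table of a mouse spinal cord study. The members were the rows whose symbol began with Col and a digit, with Lama, Lamb or Lamc and a digit, or with Fbn and a digit, together with *Nid1*, *Nid2*, *Fn1*, *Eln*, *Hspg2* and *Agrn*, at a base mean of at least 10. The rule found 62 of the 25232 genes in the table. The base mean is the authors' mean, over all libraries, of the read counts of a gene divided by the size factor of each library. The pattern matched 64 symbols at any level, and the 2 that fell below the minimum were *Col10a1* (base mean 1.78) and *Col17a1* (base mean 4.33). Just inside it were *Col6a5* (11.4) and *Lamb3* (19.0). One member, *Col4a3bp*, carries a collagen symbol but encodes a ceramide transfer protein of the cytosol, not a matrix protein. It had a base mean of 3098 and is left out of every summary below, which leaves 61 matrix genes, 42 of them collagens and 11 of them laminin chains.

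The RNA came from the spinal cord, of which the lumbar region was dissected according to the methods of the study. The mice were females of 90 days on a C57BL/6 background, 5 of the SOD1 G93A genotype and 5 of the wild type (WT). SOD1 G93A mice carry many copies of a human *SOD1* gene with a mutation of familial amyotrophic lateral sclerosis (ALS), and the WT mice were their littermates. The study set both genotypes side by side at an early symptomatic stage. The columns of the deposited table that set SOD1 G93A against WT are the authors' own comparison and were not used here, and the only other column is the base mean. Each level below is therefore the authors' mean over the 10 libraries of both genotypes, with no standard deviation and no value for a single mouse. No difference between the genotypes, and no test, is reported for these genes. Neighbours in an order of levels cannot be told apart without that spread. In a bulk tissue, fewer cells of a type and less RNA per cell cannot be told apart either.

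Basement membranes are thin sheets of matrix that lie under the endothelium of vessels, beneath the meninges at the surface of the cord, and around the Schwann cells of the nerve roots. A laminin network and a collagen IV network form the sheet, and nidogens and the heparan sulphate proteoglycans perlecan and agrin are bound into it. A laminin is a trimer of an alpha, a beta and a gamma chain. Collagens are trimers as well, and in the triple helix each triplet of residues begins with glycine, the only residue small enough for the centre of the helix. Fibrillar collagens, fibronectin, fibrillins and elastin belong to the looser matrix of the meninges, the larger vessels and the roots.

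The glycine repeat is written into the exons of the fibrillar collagens, whose coding exons are often 54 bases long and hold 6 triplets of residues. For 6 chains 1 such exon is shown, read from the GENCODE M21 transcripts of GRCm38, so that the repeat can be seen in the genes whose levels follow. It was picked among the exons of 54 bases that begin with a glycine codon and hold one at the start of each triplet, as the one closest to the middle of the coding sequence, so the pattern in it is a matter of choice. The capitals mark the glycine codons (those that begin with GG), and all sequences run 5′ to 3′ on the strand of the gene.

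*Col1a1*, coding exon 34 of 51, chr11:94946574-94946627, plus strand: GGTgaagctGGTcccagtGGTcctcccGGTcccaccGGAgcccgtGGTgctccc
*Col1a2*, coding exon 34 of 52, chr6:4530172-4530225, plus strand: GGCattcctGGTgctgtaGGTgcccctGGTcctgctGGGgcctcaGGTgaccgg
*Col3a1*, coding exon 32 of 51, chr1:45337958-45338011, plus strand: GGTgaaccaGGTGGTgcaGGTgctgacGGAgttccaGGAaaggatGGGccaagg
*Col2a1*, coding exon 35 of 54, chr15:97983961-97984014, minus strand: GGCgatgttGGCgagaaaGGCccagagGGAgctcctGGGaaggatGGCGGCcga
*Col11a1*, coding exon 34 of 67, chr3:114138744-114138797, plus strand: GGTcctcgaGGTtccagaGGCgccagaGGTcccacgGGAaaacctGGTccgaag
*Col11a2*, coding exon 34 of 66, chr17:34056918-34056971, plus strand: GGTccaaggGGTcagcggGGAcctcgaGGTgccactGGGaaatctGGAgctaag

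In *Col1a1*, *Col1a2*, *Col11a1* and *Col11a2* the exon held 6 glycine codons, 1 at the start of each triplet. The exons of *Col3a1* and *Col2a1* held 7, because a glycine also stood directly after a glycine of the repeat. *Col11a1* and *Col11a2* each had 31 exons of 54 bases that began with a glycine codon and kept the repeat throughout, and *Col1a1* had 21. Across the 11 fibrillar collagens, 526 of 627 internal coding exons (83.9%) had a length that was a multiple of 9 bases, and 305 (48.6%) were exactly 54 bases long. The other collagens kept the unit of 9 less strictly. It held for 47.2% of the exons of the collagen IV genes, whose helix is interrupted many times, and 4.23% of those exons were 54 bases long. In the laminins 72 of 464 internal coding exons (15.5%) were a multiple of 9 and none was 54 bases long. Over the 14594 other coding genes above the minimum base mean, the shares were 13.4% and 0.415%. The laminins lay near the rest of the genome, and the collagens as a whole lay far above it (64.0% and 25.0%). The unit of 9 was not confined to collagens. It held for 84 of 205 exons (41.0%) of the fibronectin and elastic fibre genes, against 37.7% in the collagen class of *Col15a1* and *Col18a1*.

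**Figure D1:**
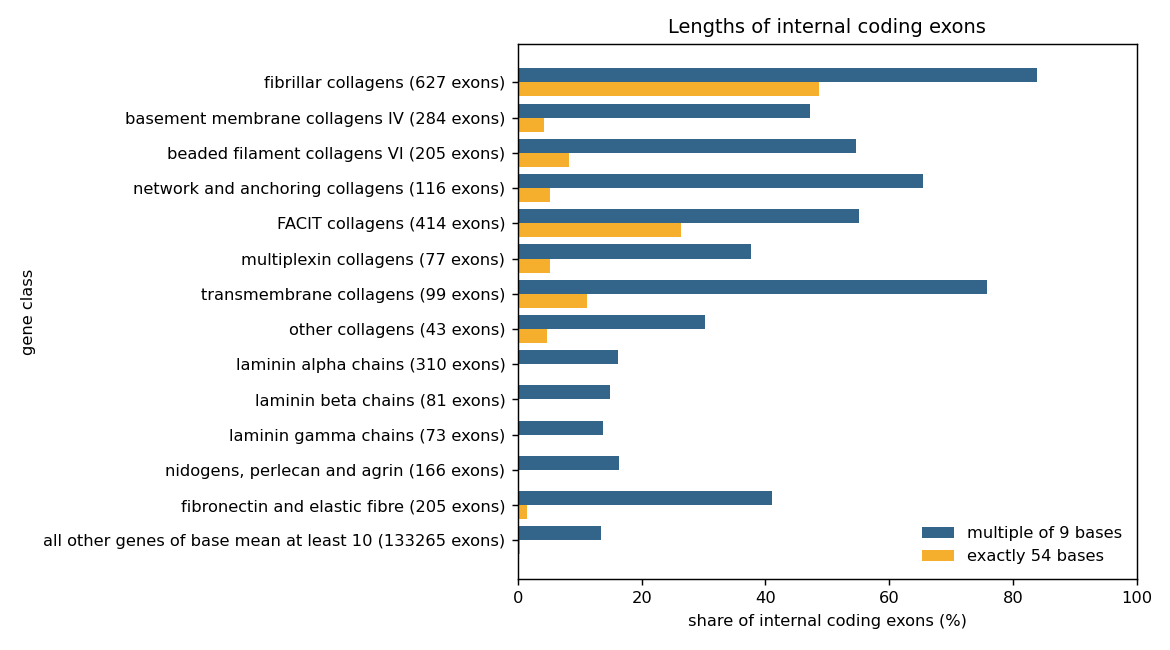
Share of internal coding exons (%) whose length is a multiple of 9 bases (blue) or exactly 54 bases (yellow), for each gene class and for all other genes of base mean at least 10. The fibrillar collagens stand at 83.9% and 48.6%, and the laminin classes have no exon of 54 bases.

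In the proteins translated from these genes, the glycine repeat set the collagens apart from nearly all other matrix genes. The longest unbroken run of glycine triplets was 344 triplets in *Col3a1*, and it was 338 in *Col1a1* and in both collagen XI chains. In *Col4a1* it was 40 and in *Col4a2* 66. The runs did not always go with the unit of 9. In *Fbn1* 27 of 63 and in *Fbn2* 32 of 63 internal coding exons were a multiple of 9, with longest runs of 4 and 3. *Col8a1* and *Col8a2* had no internal coding exon and runs of 61 and 60. All 42 collagens had a run of at least 10 triplets, with *Col26a1* lowest at 23. Of the 19 other matrix genes only *Eln*, the gene of elastin, had such a run (17 triplets), and its coding sequence was the richest in glycine of all 61 (36.3% of residues).

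Levels of different genes were compared per length, as the base mean per kilobase (kb) of merged exons. On this scale the 61 matrix genes ranged from 1.21 (*Col6a5*) to 659 (*Agrn*), with a median of 34.4. The median over the 15624 genes that passed the same minimum and had an exonic length was 117, and 13 of the 61 matrix genes (21.3%) lay above it. The matrix genes were long, with a median of 8176 bases of exon against 4329 for all genes. Their base means before division by length had a median of 339, against 514 for all genes. Together they held 0.172% of the summed base means of the table.

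**Figure D2:**
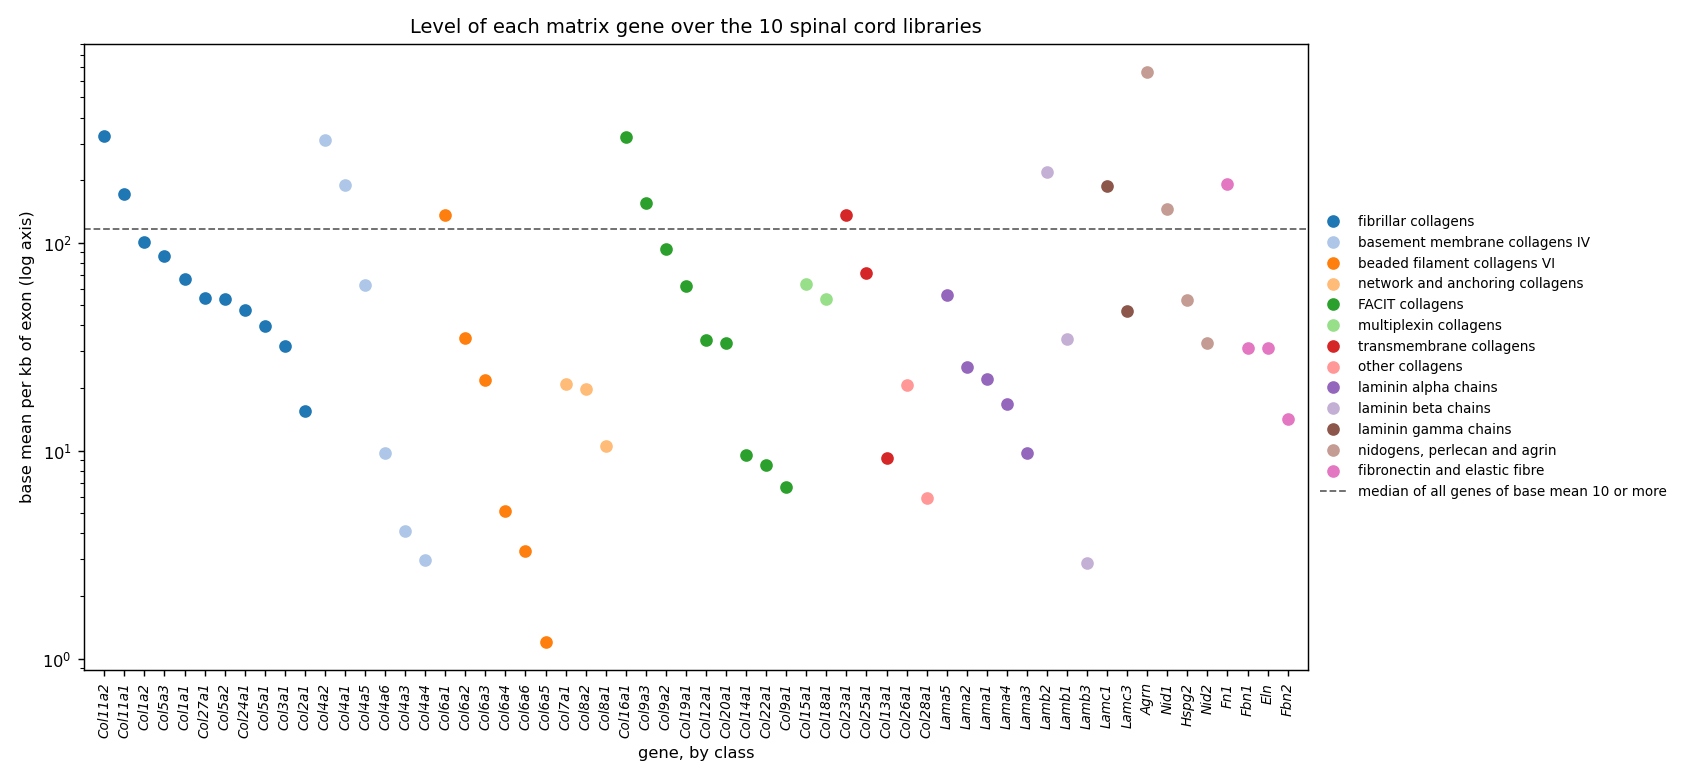
Base mean per kb of exon (log axis) of 60 of the 61 matrix genes, each point 1 gene and the authors' mean over the 10 libraries of both genotypes, grouped by class and ordered by level within it. The dashed line is the median of all genes of base mean at least 10 (117), and 13 of the points lie above it.

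Agrin (*Agrn*, chromosome 4 of GRCm38 from 156165290 to 156197488) is a heparan sulphate proteoglycan of basement membranes that motor neurons also secrete to cluster acetylcholine receptors at the neuromuscular junction. Its level was 659 per kb of exon at a base mean of 6118, 2.02 times that of the next matrix gene and above 90.0% of all genes that passed the minimum. The other linkers were lower. Nidogen-1 (*Nid1*), which bridges laminin and collagen IV, stood at 146 per kb, perlecan (*Hspg2*) at 53.2 and nidogen-2 (*Nid2*) at 32.8. The receptors of agrin at the synapse were far apart, as *Lrp4* had 100.1 per kb of exon and the kinase gene *Musk*, which acts in muscle, 1.14 per kb (base mean 4.29).

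Collagen IV, the collagen of basement membranes, was carried mainly by its ubiquitous chains. *Col4a2* (chromosome 8 from 11312805 to 11449287) had 312 per kb of exon and *Col4a1* (chromosome 8 from 11198423 to 11312826) had 189 per kb. The chains alpha3 and alpha4, known from the basement membrane of the kidney glomerulus, stood at 4.12 per kb for *Col4a3* and 2.99 per kb for *Col4a4*. *Col4a5* had 62.9 and *Col4a6* 9.74 per kb. The summed level of *Col4a1* and *Col4a2* was thus well above that of the other 4 chains of the family.

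Each pair of these genes lies head to head on its chromosome with no coding gene between them. The first bases of *Col4a1* and *Col4a2* overlapped by 22 bases in the GENCODE M21 annotation, *Col4a3* and *Col4a4* on chromosome 1 were 71 bases apart, and *Col4a5* and *Col4a6* on the X chromosome were 1308 bases apart. Within the first pair the level of *Col4a1* was 0.607 times that of *Col4a2*, and within the second *Col4a3* had 1.38 times the level of *Col4a4*. The pair on the X chromosome was less even, with *Col4a5* at 6.46 times the level of *Col4a6*. Thus neighbours that are arranged alike differed in how close their levels were, and between the pairs the levels differed more than within the first pair or the second.

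Among the laminins, 1 chain held most of the level in the beta family, and the gamma1 chain came next after it. Laminin beta2 (*Lamb2*, chromosome 9 from 108479736 to 108490530) had 219 per kb of exon, 85.5% of the sum over the beta chains. Laminin beta1 (*Lamb1*) had 34.4 per kb and laminin beta3 (*Lamb3*) 2.88. Laminin gamma1 (*Lamc1*, chromosome 1 from 153218922 to 153332786) had 188 per kb, and *Lamc3* had 46.8. *Lamb3* encodes a chain of a laminin of the skin.

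The alpha chains were spread more evenly. *Lama5* (chromosome 2 from 180176373 to 180225859), a chain of mature vessels, was highest with 56.3 per kb, or 43.2% of the alpha sum. *Lama2*, a chain of muscle and Schwann cells that is mutated in a congenital muscular dystrophy, had 25.4 per kb. *Lama1*, a chain of the pial surface, had 22.0, the endothelial chain *Lama4* 16.8 and *Lama3* 9.79. The sum was 130 per kb of exon for the alpha chains and 256 for the beta chains. A laminin holds 1 of each, but these are levels of RNA, and the chain proteins were not measured. Per kb of coding sequence these sums were 173 and 314.

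**Figure D3:**
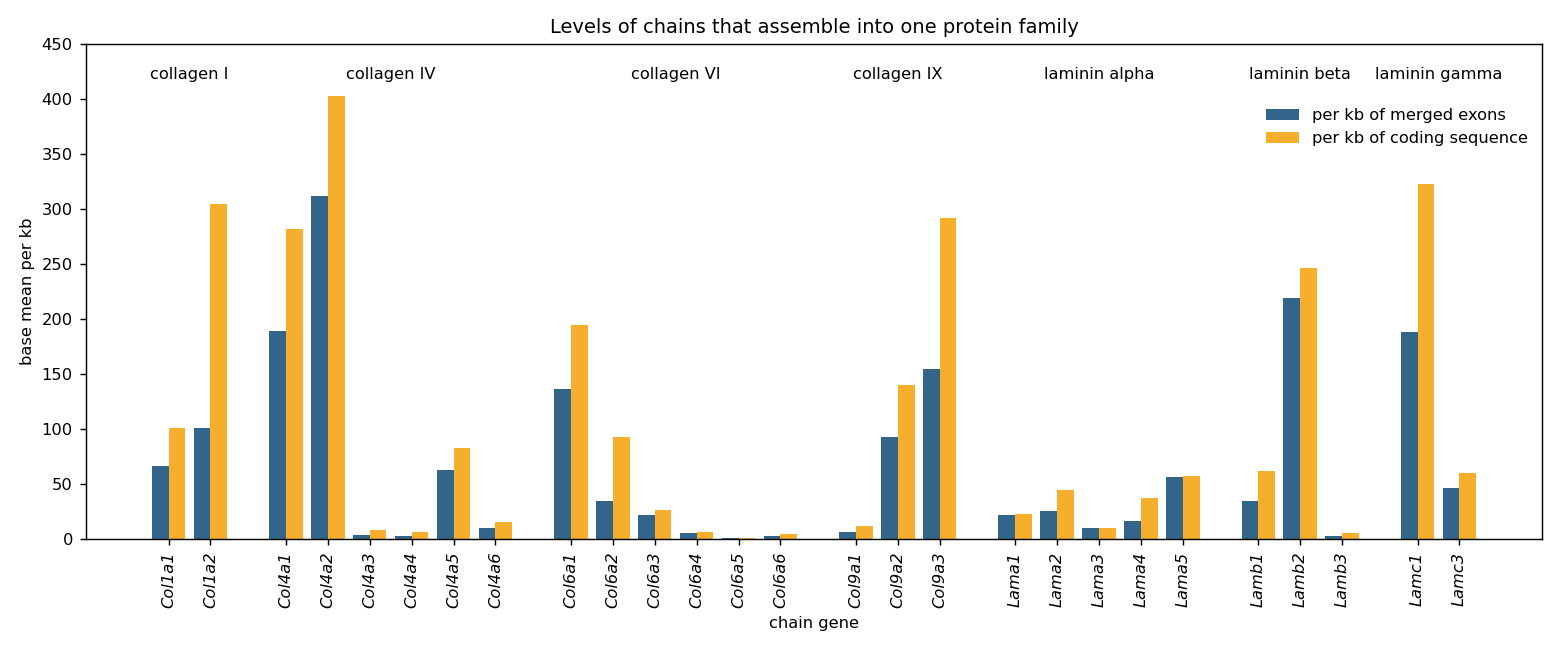
Base mean per kb of merged exons (blue) and per kb of coding sequence (yellow) for the chain genes of collagens I, IV, VI and IX and of the laminins, as the authors' mean over the 10 libraries of both genotypes. *Col4a1* and *Col4a2*, *Lamb2* and *Lamc1* stand out within their families on both scales, and the *Col1a2* bar rises from 101 to 305 when coding length is used.

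The highest fibrillar collagens were not those of the fibrous tissues. *Col11a2* (chromosome 17 from 34039437 to 34066685) had 326 per kb of exon and *Col11a1* (chromosome 3 from 114030540 to 114220718) had 172. Collagen XI is known from cartilage, where it lies in the fibrils of collagen II, but *Col2a1*, the gene of collagen II, had the lowest level of the 11 fibrillar genes, 15.6 per kb. Among other genes of cartilage and bone, *Comp* had 6.28 per kb, *Matn3* 1.99 and *Ibsp* 2.63, while *Acan*, which the nets around neurons also contain, had 123. *Col1a2* stood at 101 per kb, *Col1a1* at 66.9 and *Col3a1* at 31.9, which are the chains of the collagens I and III of fibroblasts. *Col5a3* had 86.7, *Col5a2* 53.7 and *Col5a1* 39.9 per kb. The remaining fibrillar genes, *Col27a1* and *Col24a1*, had 53.9 and 47.7 per kb.

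The ratio of *Col1a1* to *Col1a2* RNA was 0.662 per kb of exon. The collagen I trimer holds more alpha1 than alpha2 chains, but the protein was not measured. The RNA ratio was 0.330 per kb of coding sequence, because 12426 bases of merged exon were annotated to *Col1a2* and 4116 of them were coding. The order of the pair was the same on both scales.

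FACIT collagens sit on the surface of fibrils, and their helices are interrupted. *Col16a1* (chromosome 4 from 130047840 to 130099283) was the highest of the 9 members, with 321 per kb of exon. *Col9a3* had 155 per kb, *Col9a2* 93.2 and *Col9a1* 6.67. The RNA level of *Col9a3* was thus 23.2 times that of *Col9a1*. The collagen IX trimer of cartilage holds 1 chain of each, but the protein was not measured. *Col19a1*, which lies tail to tail with *Col9a1* on chromosome 1, had 61.6 per kb, 9.23 times the level of that neighbour. *Col12a1* had 34.2, *Col20a1* 32.8, *Col14a1* 9.57 and *Col22a1* 8.55 per kb.

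Collagen VI forms beaded filaments close to basement membranes. *Col6a1* had 136 per kb of exon, *Col6a2* 34.8 and *Col6a3* 22.0. The alternative chains *Col6a4*, *Col6a5* and *Col6a6*, which lie in a row on chromosome 9 with gaps of 28.8 and 27.9 kb, had 5.14, 1.21 and 3.28 per kb. The ratio of *Col6a1* to *Col6a2* was 3.92 per kb of exon and 2.08 per kb of coding sequence, and 8326 bases of merged exon were annotated to *Col6a2*.

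Transmembrane collagens span the plasma membrane with a collagen ectodomain. *Col23a1* (chromosome 11 from 51289920 to 51583918) had 136 per kb of exon and *Col25a1* (chromosome 3 from 130131501 to 130599877) had 71.2 per kb. *Col25a1* is needed for motor axons to innervate muscle during development. *Col13a1*, which acts at the neuromuscular junction from the side of the muscle, had 9.21 per kb, and *Col17a1* of the skin was under the minimum. Per kb of coding sequence *Col23a1* and *Col25a1* rose to 489 and 461 and ranked next after *Agrn* among the 61 matrix genes. For *Col25a1*, 1998 of 12947 bases of merged exon were coding.

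The multiplexins *Col15a1* and *Col18a1*, which are proteoglycans of vascular basement membranes, had 63.3 and 53.8 per kb of exon. *Col7a1*, the gene of the anchoring fibrils of the skin, had 21.0 per kb of exon, close to the 19.8 of the network-forming chain *Col8a2*, and *Col8a1* had 10.5. Per kb of coding sequence *Col7a1* was the lowest of these genes with 24.5, against 42.5 for *Col8a2* and 36.9 for *Col8a1*. *Col26a1* and *Col28a1* had 20.7 and 5.92 per kb. Of the fibronectin and elastic fibre genes, *Fn1* (chromosome 1 from 71585520 to 71653200), which encodes a glycoprotein that cells bind through integrins, had 191 per kb. *Fbn1*, *Eln* and *Fbn2* had 31.1, 31.0 and 14.2 per kb. On the opposite strand, exons of another annotated gene covered 20.1% of the exonic bases of *Fbn1*. The share was 8.45% for *Nid2*, 6.27% for *Lamc3*, 6.07% for *Col9a3* and 5.65% for *Col4a3*, and at most 5% for the other matrix genes. Whether reads of these stretches were counted by strand is not stated.

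By class, the collagens made up 62.0% of the summed level per kb of the 61 genes, nidogens, perlecan and agrin 19.0%, the laminins 13.3% and fibronectin with the elastic fibre genes 5.70%. Within the collagens, the fibrillar class held 21.2% of the sum over the 61 genes, the FACIT class 15.4% and collagen IV 12.4%. By number, 42 of the 61 genes were collagens and 11 were laminins. In the class of nidogens, perlecan and agrin, *Agrn* alone held 659 of the 891 per kb.

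Genes that act on these proteins were present at a broad range of levels. All 21 genes for the processing of collagens passed the minimum. *P4hb*, a subunit of the prolyl 4-hydroxylase that also serves as a general disulphide isomerase, was highest with 1358 per kb of exon. *Serpinh1*, the collagen chaperone, had 248 per kb, and the prolyl hydroxylase subunits *P4ha1* and *P4ha2* had 238 and 45.8. *Lox*, which cross-links collagen and elastin, was lowest with 6.70 per kb. Of the 15 receptor genes, 14 passed the minimum and *Ddr1*, a collagen receptor of epithelia and oligodendrocytes, was highest with 1096 per kb, followed by the integrin subunit *Itgb1* with 602 and the dystroglycan gene *Dag1* with 441. *Sparc*, whose product binds collagen IV, had 8671 per kb and stood above all 61 matrix genes.

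**Figure D4:**
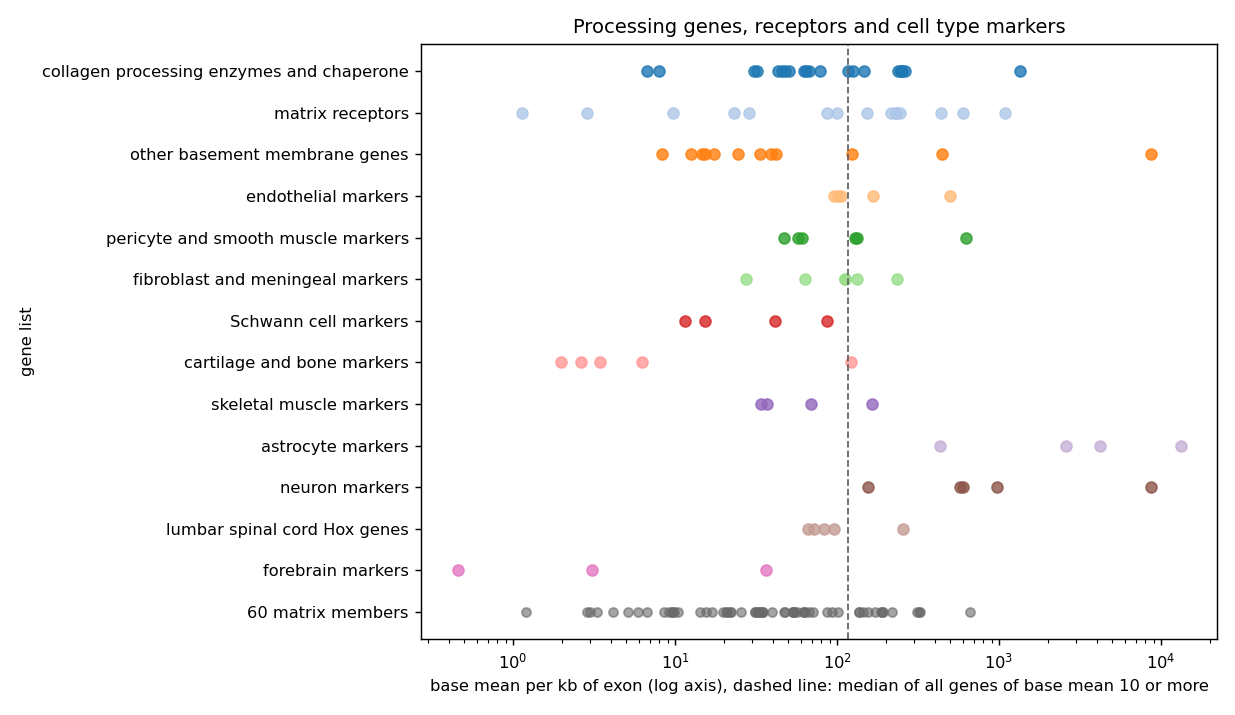
Base mean per kb of exon (log axis) of genes that process or bind matrix proteins, of markers of cell types and regions, and of 60 of the 61 matrix genes, each point 1 gene and the authors' mean over the 10 libraries of both genotypes. All points are above 0, those of the forebrain genes included, and the lowest point is the forebrain gene *Emx1* at 0.455.

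The labelled tissue was checked against marker genes. The 5 Hox genes listed for the lumbar region were *Hoxa9*, *Hoxc9*, *Hoxa10*, *Hoxc10* and *Hoxd10*. They had 66.3 (*Hoxc9*) to 256 (*Hoxc10*) per kb of exon, while the forebrain genes *Emx1* and *Neurod6* had 0.455 and 36.7. Markers of cell types were read as well. The 5 endothelial markers had 95.6 to 501 per kb (*Cldn5* highest), the 6 pericyte and smooth muscle markers 46.8 to 627 (*Rgs5* highest) and the 6 markers of fibroblasts and meninges 27.5 to 236 (*Igf2* highest). The 4 Schwann cell markers described here had 11.5 to 86.8 per kb, and the highest of them was *Prx*, a gene of peripheral myelin. The 4 skeletal muscle markers had 33.8 to 163 per kb, with *Acta1* highest. The 4 astrocyte markers had 431 to 13345 per kb and the 5 neuron markers 156 to 8695. No gene of any list was at 0, the forebrain genes included, so a level above 0 does not show that a cell type is present. The part of any of these cell types, astrocytes and neurons included, in the levels of *Lama2*, *Col1a1* and the other members was not tested.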

How the data were processed

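RNA of the lumbar spinal cord of 5 WT and 5 SOD1 G93A female mice was sequenced. According to the methods and the submitters' processing notes, the authors filtered reads with Fastp, aligned them to mm10 with HISAT2 2.1.0, counted uniquely mapped reads per gene with featureCounts 2.0.2 and ran DESeq2. The libraries were stranded, and the strand setting and annotation of the counting are not given in the sources used here. The deposited table has 7 columns. The gene symbol and the base mean, a signal that the authors computed as the mean of counts divided by size factors over all libraries, were used. The other 5 hold the authors' comparison of the genotypes (log2 fold change, its standard error, Wald statistic, p-value and adjusted p-value) and were not used, so that no test was run. Depth per library is unknown, and the base means sum to 22158933, the mean library total on the scale of the size factors. The number of columns of single samples was 0.

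Here, all 62 symbols were matched to GENCODE M21 (GRCm38, the build that mm10 denotes). Exonic length was the length of all exons of a gene merged, and coding length that of its longest coding sequence. Coding length was taken from the annotation, since no protein table was used here. Of the genes that passed the minimum, 98.2% had an exonic length. Internal coding exons exclude the first and the last. The members, classes and lists were chosen with earlier results of these data known. The descriptions of exon lengths, glycine triplets, neighbouring genes, overlapping exons and promoters were added after the base means had been seen. Each member was named or summarised, and other lists by their highest and lowest members and a few of known role, the latter chosen after their values were seen. Alternatives were other minimum base means, coding length and no length correction. Some members and markers were left out of the text and the plots. Merged exon lengths and overlaps, the division by length, glycine runs and motif positions were tested on simulated data. The other computations were not. Python 3.11.15, scipy 1.17.1, Biopython 1.88 and matplotlib 3.10.9 were used.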

Additional observations from a re-analysis of the deposited data

How the results depend on the processing

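No paired analysis was possible because the base mean is a mean over all libraries. Leaving out a library could not be done for the same reason. The number of members was 60 to 64 under the other minimum base means and 61 with matrix genes only. Of the 10 highest matrix genes per kb of exon, 7 were among the 10 highest per kb of coding sequence and 9 without length correction. With coding length the ratios were 0.330 for *Col1a1*/*Col1a2*, 0.700 for *Col4a1*/*Col4a2*, 1.30 for *Col4a3*/*Col4a4*, 5.44 for *Col4a5*/*Col4a6*, 2.08 for *Col6a1*/*Col6a2*, 7.28 for *Col6a1*/*Col6a3*, 23.9 for *Col9a3*/*Col9a1*, 2.09 for *Col9a3*/*Col9a2*, 0.535 for *Col5a1*/*Col5a2* and 0.868 for *Col8a1*/*Col8a2*. Without length correction they were 0.350, 0.684, 1.29, 5.44, 2.06, 2.27, 17.6, 2.07, 0.657 and 0.924 in the same order. All 10 ratios stayed on the same side of 1, but each changed in size. *Col6a1*/*Col6a3* was 6.20 per kb of exon and 2.27 without length correction. The shares of collagens, laminins, nidogens with perlecan and agrin, and fibronectin with elastic fibre genes were 66.9%, 10.7%, 16.7% and 5.66% with coding length and 57.3%, 13.5%, 21.2% and 8.02% without correction.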

Other observations

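The RefSeq promoter table of GRCm38.p6 (300 bases, 250 before to 50 after the start) had an entry for 42 of the 61 matrix genes, and 4 short motifs were searched on both strands. The letters GGGCGG were found in 29 of the 42 (69.0%), against 35.7% of all promoters in the table. A second background, the first promoter of each gene that passed the minimum base mean, was added after these values had been seen, and there the share was 61.5%. CCAAT was found in 13 of the 42 (31.0%), against 37.4% of all promoters and 38.2% of the second background. CCCTNCCCC was found in 7 of the 42 (16.7%), against 9.48% and 11.9%. TATAAA was found in 3 of the 42 (7.14%), which were *Col11a2*, *Col3a1* and *Col13a1*, against 13.6% and 7.24%. The median GC content was 60.7% in the matrix genes and in the second background, and 52.7% in all promoters. The *Col3a1* window had a GC content of 37.7%. Matches of GGGCGG and CCCTNCCCC can overlap. No test was made of these shares.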
